A study of Homo sapiens with 12 samples.

Results

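The 10 genes described here are ATF3, ATF5, DDIT3, TRIB3, CHAC1, SESN2, DDIT4, ASNS, PSAT1 and PHGDH, a set of stress response and amino acid synthesis genes downstream of the transcription factor ATF4. They were chosen by gene symbol, with earlier results of these data known, as were the other gene lists used below. Counts set beside the share of all genes are therefore a description and not independent evidence. All 10 were found among the 20003 genes measured in each sample. Their mRNA was measured by mRNA-seq in NB4, an acute promyelocytic leukemia cell line with the PML-RARα fusion gene, and in Kasumi-1, an acute myeloid leukemia line that carries AML1-ETO. Each cell line had 3 control samples that received DMSO and 3 samples incubated with the compound OGP46 at 1 μM, which gives 12 samples in 4 groups. The labels and the methods of the study give 48 h of incubation, and a legend in the paper gives a longer time. Each group is a single established line grown in culture, so a cell line difference compares those lines and not the leukemia subtypes. The labels do not say whether the 3 samples of a group came from separate cultures. The paper's legend for its mRNA-seq figure speaks of 3 independent experiments, without tying them to the samples. The p-values measure the spread between these samples, which may be technical.

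ATF4 is controlled mainly by translation. In the integrated stress response, 1 of 4 kinases (EIF2AK1, EIF2AK2, EIF2AK3 or EIF2AK4, which sense conditions such as heme shortage, double-stranded RNA, unfolded protein in the endoplasmic reticulum and amino acid shortage) phosphorylates eIF2α, general protein synthesis slows, and the ATF4 mRNA is translated more. ATF4 protein then activates transcription of stress regulators (ATF3, ATF5, DDIT3, TRIB3), of a glutathione-degrading enzyme (CHAC1), of inhibitors of the growth kinase mTORC1 (SESN2, DDIT4) and of enzymes that make asparagine (ASNS) and serine (PHGDH, PSAT1). Some leukemias are known for a high demand for asparagine.

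ATF4 and its bZIP partners bind a composite element that is commonly written TGATGNAA, where N is any base, and the promoters of the members were searched for these letters on both strands. The promoter windows came from RefSeq (GRCh38.p14) and run from 250 bases before to 50 bases after a transcription start. All 10 members had at least 1 window, 17 in all, and 3 members held a match, against 4.46% of 27305 genes and 3.62% of 35116 windows. The matches are shown with 30 bases of context, in capitals, 5′ to 3′ on the strand of the gene, because they allow the 3 members with a match to be compared, of which ASNS rose in NB4, ATF3 did not pass the test there and CHAC1 was below the filter on low values. The match begins at base -68 from the start in ASNS (chr7:97872458-97872487, minus strand), at -191 in ATF3 (chr1:212565205-212565234, plus strand) and, on the opposite strand, at -209 in CHAC1 (chr15:40953251-40953280, plus strand).
ASNS: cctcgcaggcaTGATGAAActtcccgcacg
ATF3: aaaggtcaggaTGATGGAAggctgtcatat
CHAC1: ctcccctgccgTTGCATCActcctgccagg
The upstream bases of DDIT4 (chr10:72273674-72273919, plus strand, bases -250 to -5) and SESN2 (chr1:28259268-28259517, plus strand, bases -250 to -1) are shown because these members had the highest log2 fold changes in NB4. They hold no match to these letters, which says nothing about binding elsewhere in the gene.
DDIT4: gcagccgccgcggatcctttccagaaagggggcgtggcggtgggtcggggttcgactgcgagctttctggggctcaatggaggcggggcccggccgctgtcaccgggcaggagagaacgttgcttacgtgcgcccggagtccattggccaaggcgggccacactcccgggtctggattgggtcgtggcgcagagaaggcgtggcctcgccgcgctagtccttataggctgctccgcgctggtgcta
SESN2: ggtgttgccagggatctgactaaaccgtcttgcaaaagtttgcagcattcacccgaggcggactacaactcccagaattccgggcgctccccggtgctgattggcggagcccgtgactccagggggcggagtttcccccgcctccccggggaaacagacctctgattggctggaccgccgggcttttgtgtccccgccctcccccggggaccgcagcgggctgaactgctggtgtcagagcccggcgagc

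The authors deposited expression as FPKM, a fragment count scaled by exon length and by the mapped fragments of the sample, so levels of different genes can be compared per length. No read counts go with these values, so how deeply each sample was sequenced is unknown and counting error cannot be stated. The FPKM of all genes summed to 248207 to 256268 in the NB4 controls, 263341 to 291523 in NB4 with OGP46 and 279802 to 310262 in the Kasumi-1 samples. RUNX1T1, POU4F1, TRH, CD34 and KIT, taken as markers of Kasumi-1, summed to 237 to 299 FPKM in the Kasumi-1 samples and to 0.563 to 3.60 FPKM in the NB4 samples. Of 5 genes taken as markers of NB4, DEFB1 was listed at 0 in every Kasumi-1 sample and STAB1 was 4.47 higher on the log2 scale in the NB4 controls, whereas HGF, MPO and PRTN3 had lower means in the NB4 controls than in the Kasumi-1 controls. Samples carry the numbers 1 to 3, and all values of a gene are given in that order.

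In NB4 cells, each of the 10 genes had a higher mean with OGP46 than in the controls, and some passed the test. Up-regulation was called by limma on log2(FPKM + 0.1) where the p adjusted by Benjamini-Hochberg was below 0.05 and the log2 fold change reached 0.58, which is 1.49-fold. TRIB3, DDIT4 and ASNS rose, 3 of the 9 members tested, against 1.45% of the 11750 genes tested. The count was 5 of 9, with DDIT3 and SESN2 added, against 5.06% of all genes when the replicate number was a block in the model, which compares same-numbered samples. With the block and no filter on low values the count was 3 of 10 (DDIT4, ASNS and CHAC1) against 1.47% of 15135 genes, and TRIB3, DDIT3 and SESN2 did not pass (adjusted p = 0.0533, 0.0637 and 0.0615 from limma). With the filter, CHAC1 was below the minimum mean of 0.1 FPKM and was not tested. In these bulk samples, a change within each cell and a shift in the share of cells that express a gene cannot be told apart. All 10 members were higher in every same-numbered pair, as were 52.9% of the genes tested, and in 8 of 10 every OGP46 sample lay above every control, as for 32.7% of the genes tested. The members had a median log2 fold change of 0.74, against 0.18 over all genes tested.

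**Figure D1:**
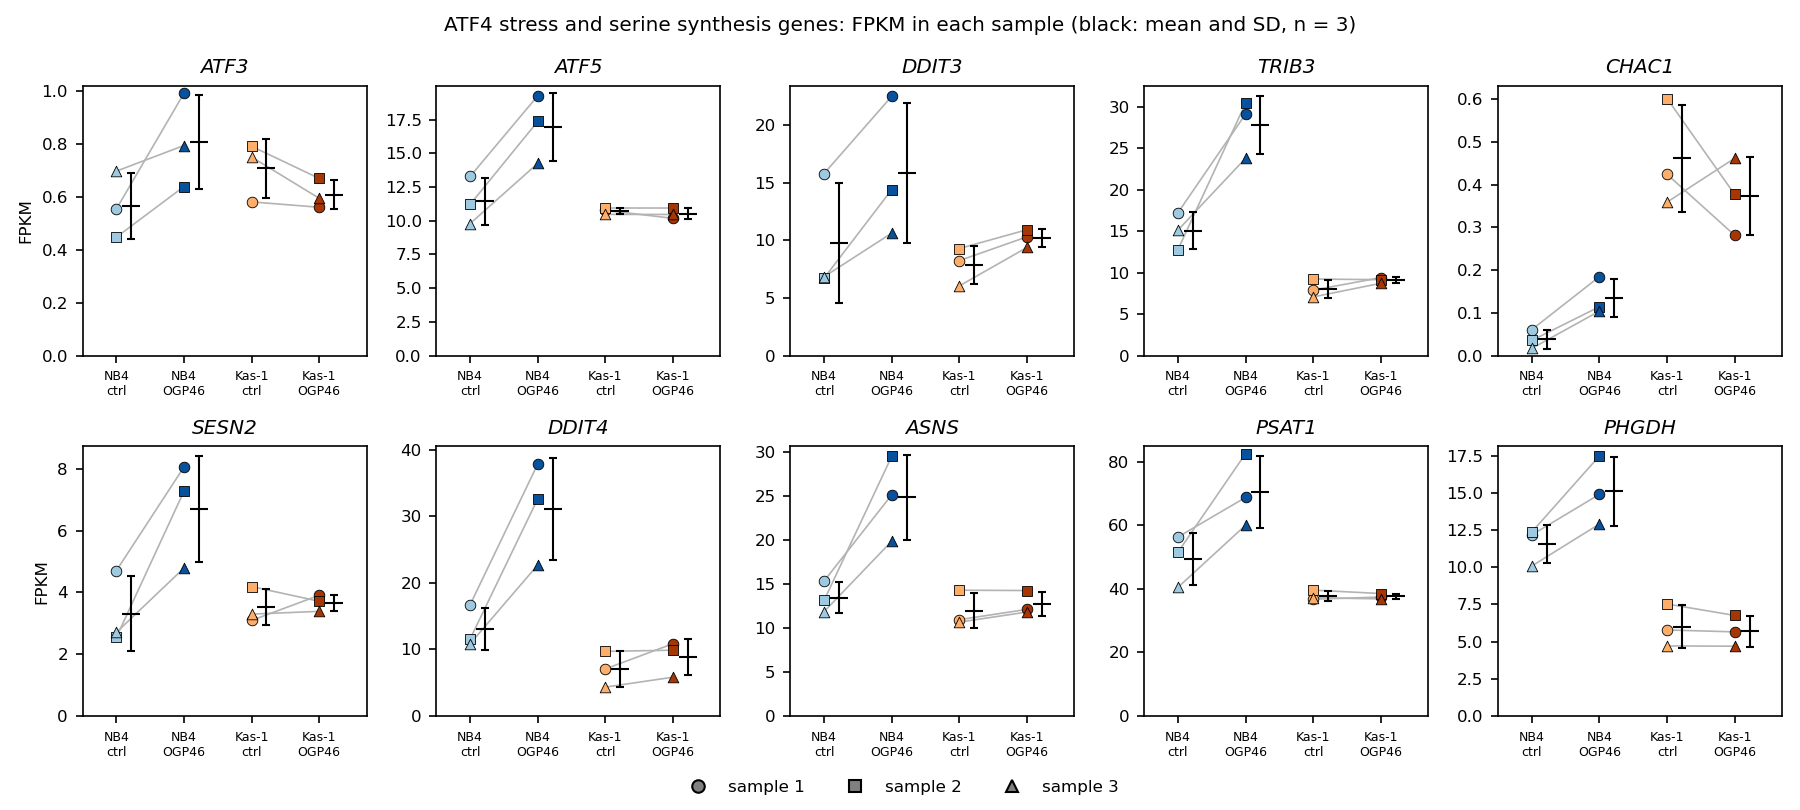
FPKM (vertical axes, each from 0) of the 10 genes in each of the 12 samples, with symbols for samples 1 to 3, grey lines between same-numbered control (ctrl) and OGP46 samples of a cell line, and black bars for mean and SD (n = 3; Kas-1, Kasumi-1). In NB4 all 10 genes were higher in each OGP46 sample than in the same-numbered control, as were 52.9% of the genes tested. There all but ATF3 and DDIT3 had every OGP46 sample above every control, as did 32.7% of the genes tested. In Kasumi-1 DDIT3 and DDIT4 were higher in each same-numbered pair. Only DDIT3 had all OGP46 samples above all controls there, as did 17.4% of the genes tested.

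Among the inhibitors of mTORC1, DDIT4 (also called REDD1, which acts through the TSC complex) had the highest log2 fold change of the members tested. It was at 16.7, 11.6 and 10.9 FPKM in the NB4 controls and at 37.9, 32.6 and 22.7 FPKM with OGP46, so the groups did not overlap and the lowest OGP46 sample exceeded the highest control. Its mean went from 13.1 ± 3.20 to 31.1 ± 7.71 FPKM (SD, n = 3), a log2 fold change of 1.24 (standard error, SE, 0.21, adjusted p = 0.0351 from limma, 1.50e-05 with the block). SESN2 encodes a leucine sensor that restrains mTORC1 when leucine is low. Its controls were at 4.71, 2.54 and 2.71 FPKM and its OGP46 samples at 8.06, 7.28 and 4.79 FPKM. Here too the groups did not overlap, although OGP46 sample 3 was only just above control sample 1. The log2 fold change of SESN2 was 1.02 (SE 0.26, adjusted p = 0.0712), and SESN2 passed with the block (adjusted p = 6.13e-04).

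TRIB3, a pseudokinase that binds ATF4 and dampens its activity, was at 17.2, 12.8 and 15.1 FPKM in the NB4 controls and at 29.1, 30.4 and 23.8 FPKM with OGP46. The groups were well separated, at 15.1 ± 2.22 and 27.8 ± 3.51 FPKM (SD, n = 3). The log2 fold change was 0.88 (SE 0.13, adjusted p = 0.0299 from limma, 4.39e-04 with the block). DDIT3, which encodes CHOP, a transcription factor that promotes apoptosis under lasting stress, was at 15.8, 6.73 and 6.85 FPKM in the controls and at 22.5, 14.4 and 10.6 FPKM with OGP46. Control sample 1 lay above 2 of the 3 OGP46 samples, so the groups overlapped, but each OGP46 sample was above its own numbered control, by 1.42-fold, 2.14-fold and 1.55-fold. Its log2 fold change of 0.74 (SE 0.36, adjusted p = 0.210 from limma) passed only with the block (SE 0.11, adjusted p = 0.00126), and was 1.14 without control sample 1 (adjusted p = 0.0762, no block).

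ATF5, a bZIP factor that is itself translated more under stress, was at 13.3, 11.2 and 9.79 FPKM in the NB4 controls and at 19.3, 17.4 and 14.3 FPKM with OGP46. Every OGP46 sample was above every control, and the log2 fold change of 0.57 (SE 0.14, adjusted p = 0.0702 from limma, 0.00126 with the block) lay just under the size of 0.58. ATF3, another bZIP factor and an early stress gene, was scarce, at 0.553, 0.447 and 0.696 FPKM in the controls and 0.990, 0.638 and 0.793 FPKM with OGP46. OGP46 sample 2 was below control sample 3, and the log2 fold change of 0.45 did not pass (SE 0.22, adjusted p = 0.207, 0.0846 with the block). CHAC1, a γ-glutamylcyclotransferase, was barely detected in the controls, at 0.0608, 0.0355 and 0.0169 FPKM, and was at 0.185, 0.114 and 0.104 FPKM with OGP46. The groups did not overlap. With no filter on low values, its log2 fold change was 0.76 (SE 0.18, adjusted p = 0.0975 from limma, 0.0485 with the block, the fit in which TRIB3, DDIT3 and SESN2 did not pass), a size that the added 0.1 FPKM makes smaller than in FPKM itself.

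Of the enzymes, asparagine synthetase (ASNS) was at 15.4, 13.1 and 11.9 FPKM in the NB4 controls and at 25.2, 29.5 and 19.9 FPKM with OGP46. All OGP46 samples exceeded all controls, at means of 24.9 ± 4.83 and 13.5 ± 1.76 FPKM (SD, n = 3). ASNS rose by a log2 fold change of 0.87 (SE 0.15, adjusted p = 0.0364 from limma, 2.54e-04 with the block). PSAT1, the transaminase that carries out the middle step of serine synthesis, was the most abundant member per length. It was at 56.3, 51.5 and 40.5 FPKM in the controls and at 68.7, 82.5 and 60.0 FPKM with OGP46, with no overlap. PHGDH, the dehydrogenase of the first and committed step, was at 12.2, 12.4 and 10.1 FPKM in the controls and at 14.9, 17.5 and 12.9 FPKM with OGP46, again with no overlap. The log2 fold changes were 0.51 for PSAT1 (SE 0.15, adjusted p = 0.0857, 0.00284 with the block) and 0.38 for PHGDH (SE 0.13, adjusted p = 0.113, 0.0128 with the block), both under the required size.

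The calls in NB4 without the block depended on the scaling of the values and on single samples. The median of all genes was 0.18 as deposited, 0.06 after TPM scaling, -0.04 after median centring and -0.01 after quantile normalization, and under each of these 3 scalings 0 members passed in limma and 4 passed at an unadjusted p below 0.05 with the same size. By that unadjusted rule 2.41%, 1.35% and 1.80% of all genes were higher under the 3 scalings. Relative to the median of all genes as deposited, the members were higher by 0.20 (PHGDH) to 1.06 (DDIT4) on the log2 scale, and under these scalings their own median was 0.62, 0.52 and 0.55. With no filter on low values, 0 members passed in limma without the block and 5 at an unadjusted p, against 3.44% of all genes. With the block, 5 members passed after TPM scaling and 4 after median centring and after quantile normalization, and the share of all genes in these fits was not computed. Leaving out any 1 of the 3 controls, or OGP46 sample 1 or sample 3, left 0 members called without the block, and leaving out OGP46 sample 2 left 3. The share of all genes was not computed for the fits with a sample left out either.

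**Figure D2:**
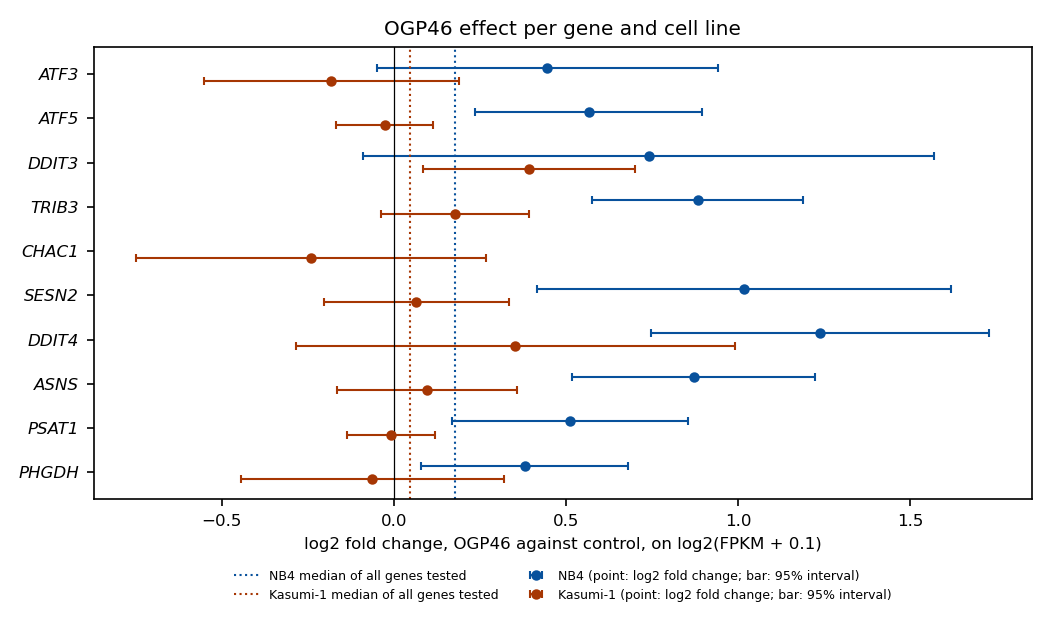
Log2 fold change with its 95% interval from limma (horizontal axis, OGP46 against control on log2(FPKM + 0.1), no block) for each gene in NB4 and Kasumi-1, with dotted lines at the median of all genes tested (0.18 and 0.05). All 9 values for NB4 lie to the right of the median for NB4, from 0.38 for PHGDH to 1.24 for DDIT4, and CHAC1 has no value there because it was below the filter.

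In Kasumi-1 cells, 0 of the 10 members passed in either direction by limma, with or without the block, against 0.0338% of the 11835 genes tested and 0.617% with the block. At an unadjusted p below 0.05 with the same size, the count was also 0. The median log2 fold change of the members was 0.03, against 0.05 over all genes. DDIT3 had the highest value and was the only member whose OGP46 samples all exceeded the controls, as did those of 17.4% of the genes tested. It was at 8.24, 9.29 and 6.05 FPKM in the controls and at 10.3, 10.9 and 9.39 FPKM with OGP46, where the lowest OGP46 sample was just above the highest control. The log2 fold change was 0.39 (SE 0.14, adjusted p = 0.221 from limma), and with the block its adjusted p of 0.0370 passed the p threshold without the size. DDIT4 was at 7.06, 9.69 and 4.33 FPKM in the controls and at 10.8, 9.87 and 5.82 FPKM with OGP46. It was higher in each of the 3 pairs while the groups overlapped, with a log2 fold change of 0.35 (SE 0.28, adjusted p = 0.572, 0.0834 with the block).

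The enzymes of asparagine and serine synthesis differed little in their means in Kasumi-1. PSAT1 was at 36.7, 39.6 and 37.2 FPKM in the controls and at 37.4, 38.5 and 36.8 FPKM with OGP46, so all 3 OGP46 samples lay inside the range of the controls. Its log2 fold change was -0.01, with a 95% interval from -0.14 to 0.12. ASNS was at 11.0, 14.3 and 10.7 FPKM in the controls and at 12.1, 14.3 and 11.8 FPKM with OGP46. The ranges overlapped, and its log2 fold change was 0.10, with a 95% interval from -0.17 to 0.36. PHGDH was at 5.78, 7.53 and 4.71 FPKM and at 5.66, 6.76 and 4.69 FPKM, slightly lower in each pair. Its interval, from -0.45 to 0.32 around -0.06, was wider because the controls themselves spread more.

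The other members overlapped between the groups of Kasumi-1. ATF5 was at 10.8, 10.9 and 10.5 FPKM in the controls and at 10.2, 10.9 and 10.5 FPKM with OGP46, with an interval of the log2 fold change from -0.17 to 0.11. TRIB3 was at 7.90, 9.24 and 7.08 FPKM and at 9.41, 9.17 and 8.73 FPKM, with an interval from -0.04 to 0.39. OGP46 samples lay both inside and just outside the range of the controls for both genes. SESN2 was at 3.09, 4.19 and 3.30 FPKM in the controls and at 3.91, 3.71 and 3.39 FPKM with OGP46. ATF3 was at 0.5802, 0.790 and 0.750 FPKM and at 0.560, 0.669 and 0.594 FPKM. CHAC1 was at 0.424, 0.602 and 0.359 FPKM and at 0.282, 0.377 and 0.462 FPKM. In these 3 genes the ranges overlapped as well, and the log2 fold changes were 0.07, -0.18 and -0.24 with adjusted p from limma of 0.827, 0.622 and 0.637.

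Whether OGP46 acted differently in the lines was tested directly, as the interaction of cell line and OGP46 in a model of the 12 samples, with an adjusted p below 0.05 and no minimum size. The log2 fold change was greater in NB4 than in Kasumi-1 for all 10 members, with a median difference of 0.67, against 0.12 over the 12309 genes tested. The share of all genes with a greater value in NB4 was not computed. CHAC1, below the filter in NB4, entered this count only through its level in Kasumi-1. Its difference ran from 0.216 to 1.96 over the alternative settings. Without the block 0 members passed, as for 0% of all genes. At an unadjusted p below 0.05, 7 of 10 members and 9.95% of all genes had a higher value in NB4. With the block 5 members passed (ATF5, SESN2, DDIT4, ASNS and PSAT1), against 1.81% of all genes in this direction. ASNS differed by 0.77 (SE 0.13, adjusted p = 0.0219 from limma with the block) and ATF5 by 0.59 (SE 0.09, adjusted p = 0.0178). TRIB3 differed by 0.70 with an adjusted p of 0.0555, and DDIT3 by 0.35 with an adjusted p of 0.295, so for these genes a difference between the lines was not established. The 5 calls also depended on the scaling and the filter, since 0 remained with the block after TPM scaling, 1 (ATF5) after median centring, 1 (ASNS) after quantile normalization and 1 (ATF5) with no filter, where the adjusted p of SESN2, DDIT4, ASNS and PSAT1 was 0.144, 0.106, 0.0809 and 0.106. With the block and no filter, 0.150% of all genes passed in this direction. For the block with the scalings this share was not computed.

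**Figure D3:**
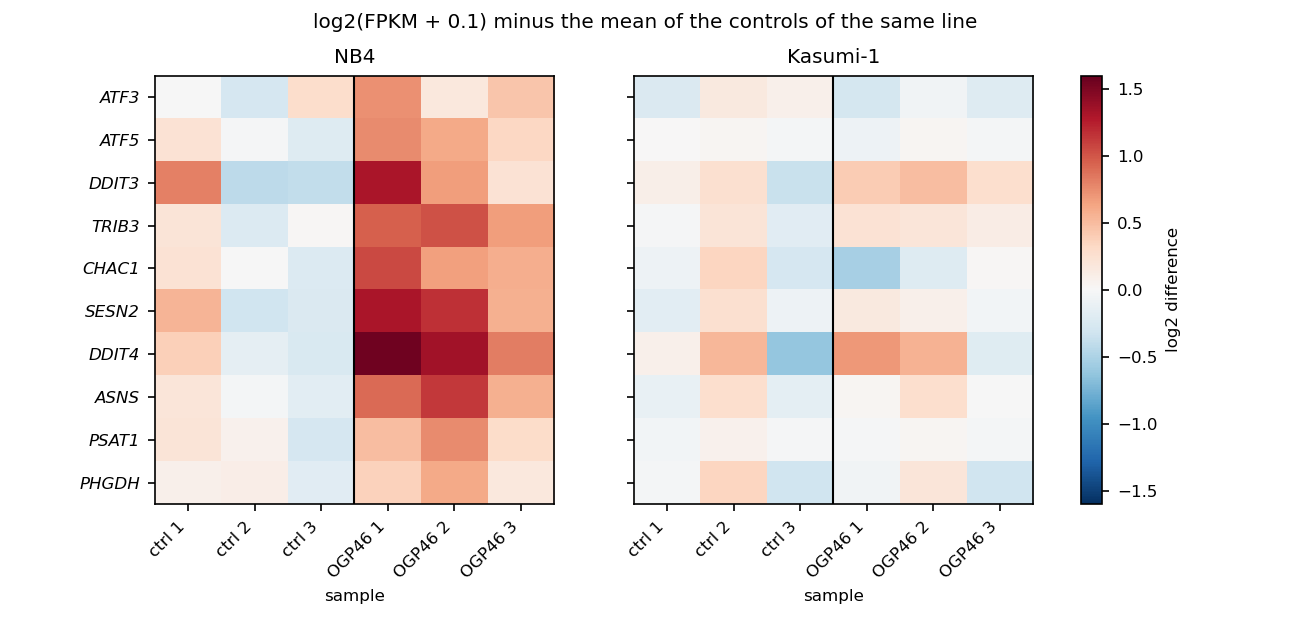
Color shows log2(FPKM + 0.1) of each gene (rows) in each sample (columns; ctrl, control) minus the mean of the 3 controls of the same cell line, red above and blue below that mean. In NB4 the OGP46 samples are red throughout and OGP46 sample 3 is the lowest of its group for 9 of 10 genes, while control sample 1 is the highest control for 8 of 10. In Kasumi-1 control sample 2 is the highest control for all 10.

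The samples of a group differed from each other in the same way for most members. Control sample 1 was the highest NB4 control for 8 of the 10 members, and OGP46 sample 3 was the lowest NB4 OGP46 sample for 9 of 10. In Kasumi-1, control sample 2 was the highest control for 10 of 10 and control sample 3 the lowest for 7 of 10. What sets these samples apart was not tested.

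The untreated lines differed in their levels of some members. The control groups were compared in the same model of 12 samples, by adjusted p and size. TRIB3, DDIT4 and PHGDH were higher in NB4 and CHAC1 was lower, 3 and 1 of 10 members, against 22.6% and 29.6% of the 12309 genes tested. The count of higher members was thus near the share of all genes, and that of lower members was below it. PHGDH was at 11.5 ± 1.27 FPKM in NB4 and 6.01 ± 1.42 FPKM in Kasumi-1 (SD, n = 3), a log2 difference of 0.95 (SE 0.17, adjusted p = 2.77e-04 from limma). The values of PHGDH did not overlap between the lines, with 10.1 FPKM as the lowest in NB4 and 7.53 FPKM as the highest in Kasumi-1. TRIB3 was at 15.1 ± 2.22 and 8.07 ± 1.09 FPKM, a difference of 0.89 (SE 0.13, adjusted p = 2.93e-05). DDIT4 was at 13.1 ± 3.20 and 7.03 ± 2.68 FPKM, a difference of 0.93 (SE 0.30, adjusted p = 0.0133), and lost its call without NB4 control sample 1 (0.74) or without Kasumi-1 control sample 3 (0.63). PSAT1 differed by 0.37 (adjusted p = 0.0141), under the required size.

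CHAC1 was the member with the widest range between groups, 12.2-fold from the lowest to the highest group mean, and the only one that was higher in Kasumi-1 than in NB4 by the test. Its control mean was 0.462 ± 0.125 FPKM in Kasumi-1 and 0.0378 ± 0.0221 FPKM in NB4, a log2 difference of -2.02 (SE 0.23, adjusted p = 3.39e-06 from limma). The gene entered this test through its level in Kasumi-1. With 1 FPKM added before the logarithm the difference was -0.49 and was not called. The NB4 samples held 3.66% to 40.0% of the CHAC1 level of the Kasumi-1 controls, while for the 5 Kasumi-1 markers the median share per NB4 sample was 0.0153% to 0.950%. The median does not show POU4F1, at 0.395 to 0.819 FPKM in the NB4 samples and a mean of 7.27 FPKM in the Kasumi-1 controls. Its share lay within the range of that of CHAC1 in the NB4 controls.

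Across the 4 groups, NB4 with OGP46 had the highest mean for 9 of the 10 members, all but CHAC1. For ASNS the order was NB4 with OGP46, NB4 control, Kasumi-1 with OGP46 and Kasumi-1 control, and the ranges of the last 3 groups overlapped. For DDIT4, TRIB3, PSAT1 and PHGDH the NB4 control group came second and its range lay above those of both Kasumi-1 groups, by less than 0.1 FPKM for DDIT4. For SESN2 the ranges of the 3 groups other than NB4 with OGP46 overlapped, and for DDIT3 the range of the NB4 controls overlapped those of both Kasumi-1 groups.

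Upstream of the members, the mRNA of ATF4 itself was at 47.4, 43.7 and 44.6 FPKM in the NB4 controls and at 50.3, 52.5 and 51.7 FPKM with OGP46. These groups did not overlap, but the log2 fold change was 0.19, close to the median of all genes, and did not pass (SE 0.07, adjusted p = 0.131 from limma, 0.107 with the block). In Kasumi-1 ATF4 was at 47.0, 52.1 and 48.2 FPKM and at 48.2, 47.4 and 49.3 FPKM, a log2 fold change of -0.02. The kinases EIF2AK1, EIF2AK2, EIF2AK3 and EIF2AK4 had log2 fold changes of 0.15, 0.27, 0.36 and 0.31 in NB4, all under the required size. With the block, EIF2AK3 (adjusted p = 0.0288 from limma) and EIF2AK4 (0.0383) passed the p threshold alone. mRNA levels do not show phosphorylation of eIF2α or translation of ATF4, which were not measured here.

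**Figure D4:**
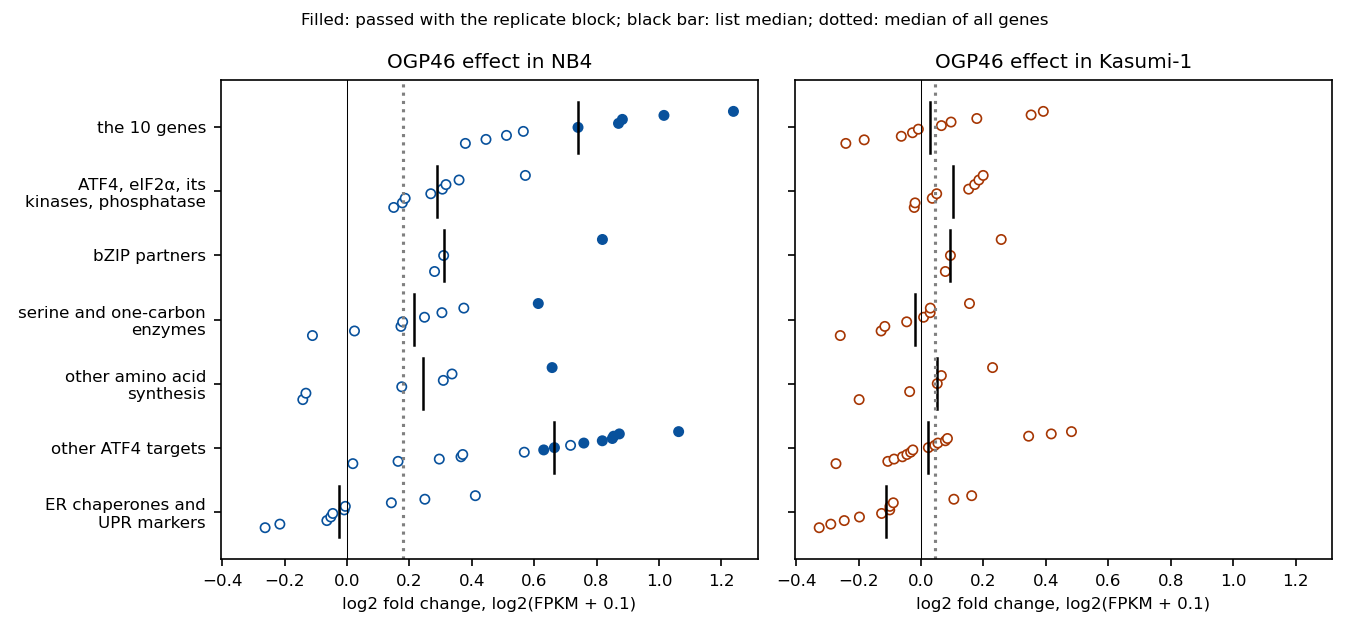
Log2 fold change (horizontal axis, OGP46 against control on log2(FPKM + 0.1)) of the 10 genes and of 6 other gene lists in NB4 (left) and Kasumi-1 (right), 1 circle per gene tested, filled where the gene passed with the replicate block, with a black bar at the list median and a dotted line at the median of all genes. In NB4 5 of the 9 members tested and 11 of 40 other pathway genes are filled, against 5.06% of all genes called higher. None of the ER chaperones and UPR markers is filled there. In Kasumi-1 no circle is filled, against 0.617% of all genes called in either direction.

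Of the 45 other genes of the pathway that were looked at, 40 could be tested in NB4 and 39 in Kasumi-1. They comprise ATF4, eIF2α, its kinases and phosphatase subunits, bZIP partners, serine and one-carbon enzymes, other amino acid synthesis genes and other ATF4 targets. In NB4 1 of 40 passed without the block, near the share of 1.45% of all genes. This was CEBPB, a bZIP partner of ATF4, at a log2 fold change of 0.82 (SE 0.11, adjusted p = 0.0289 from limma). With no filter or under the 3 scalings, 0 passed. With the block 11 of 40 passed, all higher, against 5.06% of all genes. These were CEBPB, the mitochondrial folate enzyme ALDH1L2 (0.61), the mitochondrial PEP carboxykinase PCK2 (0.66), VLDLR (0.87), STC2 (1.06), KLHL24 (0.82), the cystine transporter SLC7A11 (0.85), the neutral amino acid transporter SLC38A2 (0.63), GADD45A (0.66) and the apoptosis genes BBC3 (0.85) and TNFRSF10B (0.76). This count fell to 6 after TPM scaling, to 5 after median centring and after quantile normalization, and to 6 with no filter, where ALDH1L2, PCK2, VLDLR, STC2 and KLHL24 did not pass. With the block and no filter 1.47% of all genes were called higher, and for the block with the scalings this share was not computed. GADD45A, BBC3 and TNFRSF10B are also known as targets of p53. The median of the 40 was 0.31, against 0.18 for all genes. In Kasumi-1 0 of 39 passed without or with the block, against 0.0338% and 0.617% of all genes, and 0 passed at an unadjusted p with the same size. In the test between the lines, 0 of 40 passed without the block, as for 0% of all genes, and 12 at an unadjusted p below 0.05, against 9.95%. With the block 5 passed, against 1.81%, namely VLDLR, SLC7A5, VEGFA, GADD45A and TNFRSF10B, all with the higher value in NB4. The 5 fell to 2 after median centring and after quantile normalization, to 1 after TPM scaling and to 1 (GADD45A) with no filter. Of all genes, 0.150% passed in this direction with the block and no filter, and the share under the scalings was not computed.

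SLC7A11 was at 4.70, 2.30 and 2.28 FPKM in the NB4 controls and at 7.13, 4.55 and 4.69 FPKM with OGP46, with control sample 1 above both OGP46 samples 2 and 3. DDIT3 had the same overlap. In both genes the highest control and the highest OGP46 sample were numbered 1, as they also were for ATF5, CHAC1, SESN2 and DDIT4. The remaining serine pathway did not pass: PSPH, the phosphatase that completes serine synthesis, had a log2 fold change of 0.25 in NB4 (adjusted p = 0.101 from limma), SHMT2, which turns serine into glycine in mitochondria, 0.30 (0.101) and the mitochondrial folate enzyme MTHFD2 0.37 (0.0563). With the block the adjusted p was 0.0527, 0.0235 and 0.00603, with all 3 under the required size. In the controls these enzymes were higher in NB4 than in Kasumi-1, as PHGDH was. PSPH was at 17.5 ± 0.291 and 7.34 ± 0.741 FPKM, SHMT2 at 72.0 ± 5.03 and 34.0 ± 1.76 FPKM and MTHFD2 at 142 ± 12.5 and 71.2 ± 4.73 FPKM (SD, n = 3). Of the 8 serine and one-carbon enzymes tested, 4 were higher in the NB4 controls (SHMT1 besides these) and 1, ALDH1L2, was lower, against 22.6% and 29.6% of all genes.

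Chaperones and other markers of the endoplasmic reticulum stress response (HSPA5, HERPUD1, DNAJB9, SDF2L1, XBP1, HYOU1, DNAJC3, CALR, PDIA4 and HSP90B1) were looked at beside the members. In limma, 0 of 10 passed in NB4 or in Kasumi-1, with or without the block, and 0 at an unadjusted p with the same size. Of all genes, 1.45% were called higher in NB4 (5.06% with the block) and 0.0338% in either direction in Kasumi-1 (0.617%), so 0 of 10 is near these shares. Their log2 fold changes in NB4 ran from -0.26 (CALR) to 0.41 (DNAJC3), with a median of -0.03 and 3 of 10 above 0. In Kasumi-1 their median was -0.11, with 2 of 10 above 0. Among 6 paralogs of the members, TRIB2 rose in NB4, from 7.63 ± 2.51 to 18.1 ± 4.91 FPKM (SD, n = 3), a log2 fold change of 1.25 (SE 0.26, adjusted p = 0.0472 from limma, 1.05e-05 with the block). Without the block, TRIB2 lost its call with no filter (adjusted p = 0.0956), under each of the 3 scalings (0.151 to 0.175) and when any single NB4 sample other than OGP46 sample 2 was left out, and with the block it passed under these scalings and with no filter. TRIB2 is a pseudokinase related to TRIB3, and the other 4 paralogs tested did not pass with or without the block.

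In the annotation (GENCODE 29, GRCh38), all 10 members are protein-coding genes. DDIT4 (chr10:72273920-72276036) overlaps DDIT4-AS1 on the opposite strand, and ATF5 (chr19:49928702-49933935) overlaps IL4I1 and NUP62 on the opposite strand. DDIT3 (chr12:57516588-57521737) overlaps MARS and MBD6 on the opposite strand and AC022506.1 on its own, and ASNS (chr7:97852118-97872542) overlaps AC079781.5 on its own strand. Whether the counting used strand is not given in the sources used here, so the FPKM of these 4 genes may hold reads of a neighbor. The other members, TRIB3 (chr20:362835-397559), SESN2 (chr1:28259527-28282491), ATF3 (chr1:212565334-212620777), CHAC1 (chr15:40952962-40956519), PSAT1 (chr9:78297143-78330093) and PHGDH (chr1:119648411-119744226), overlap no annotated gene.

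Genes with a similar pattern were sought over the 12 samples, after each cell line was centered on its own mean, among the 8795 genes compared. These are correlations over samples that share the OGP46 contrast and are given as a description. For ASNS the highest Pearson r among genes that are not members were those of ZFAND3 (0.95), IFRD1, DNAJB2, CALU and RAB18, and among the members TRIB3 (0.95), PSAT1 (0.93) and SESN2 (0.92) came close to them. For DDIT3 they were SLC25A20 (0.91), CPEB4, PDZD11, TOX4 and TAF9B, with SESN2 as the nearest member (0.88). For PHGDH they were GOT1 (0.95), EXOSC1, HDLBP, TCTA and ZNF91, with ASNS as the nearest member (0.82).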

How the data were processed

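The libraries were made by the authors from poly(A) mRNA with a stranded kit. The authors deposited 1 FPKM value per gene symbol and sample, and per the submitters' processing notes Trimmomatic, HISAT2, Cufflinks and HTSeq were used with build hg38. Versions, the annotation and the strand setting are not given in the sources used here. The depth is unknown because FPKM carry no counts, so precision rests on the spread of 3 samples. In each sample, 27 symbols that had become dates were left out, which left 20003 genes.

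From the FPKM, log2(FPKM + 0.1) was fitted by limma 3.58.1 in R 4.3.3 with empirical Bayes moderation and a trend, over genes whose mean reached 0.1 FPKM in the samples fitted, within each cell line, or over 12 samples for the difference between the lines and between the controls. All p-values were adjusted over all genes tested, and the scripts were tested on simulated data. The members and gene lists were chosen with earlier results of these data known. Named genes are all members, other listed genes that passed in a cell line with or without the block, ATF4, the 4 eIF2α kinases, PSPH, SHMT2 and MTHFD2, and for DDIT3, ASNS and PHGDH the 5 genes with the highest r (mean of 1 FPKM or more in both lines). SLC7A5, VEGFA, SHMT1, SESN3, DNAJC3 and CALR were named after their values were seen.

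The sample numbers were taken as pairing from the data, as the paper names no pairing. Deviations from the group mean of same-numbered control and OGP46 samples correlated at r = 0.662, 0.850 and 0.439 in NB4 (6264 genes whose mean reached 5 FPKM) and at 0.416, 0.433 and 0.621 in Kasumi-1 (6389 genes), across genes, which are not independent replicates, and over all genes tested the lowest r was 0.197 and 0.157. Every pair thus exceeded 0.1, but differently numbered samples reached r = 0.289 in NB4 and 0.0809 in Kasumi-1. Over all genes tested they reached 0.224 and 0.101. Of the 6 samples of a line, 6 correlated best with their own number, but 5 in NB4 over all genes tested. The bar of 0.1 alone therefore does not tell pairs from other samples, and calls with the block rest on a pairing that is not documented. Fits with the replicate block are given beside those without it.

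Alternatives were pseudocounts of 1 and 0.01, no filter, a minimum of 1 FPKM, 3 other scalings (median centring, TPM and quantile normalization), the block, the block with median centring within each line, a joint model of 12 samples, and leaving out each sample. The block combined with no filter, quantile normalization or TPM scaling, and with median centring in the 12-sample model, was chosen after seeing the data.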

Additional observations from a re-analysis of the deposited data

Results flagged for a closer look

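ATF3 and PHGDH were higher with OGP46 in each NB4 pair and lower in each Kasumi-1 pair. The effect in NB4 exceeded that in Kasumi-1 by 0.63 for ATF3 and 0.44 for PHGDH on the log2 scale, and neither difference passed in limma (adjusted p = 0.419 and 0.521, and 0.155 and 0.0674 with the block). For 5 members the test of the difference between the lines passed with the block. The differences were 0.59 for ATF5, 0.95 for SESN2, 0.89 for DDIT4, 0.77 for ASNS and 0.52 for PSAT1, with adjusted p from limma of 0.0178, 0.04997, 0.0283, 0.0219 and 0.0402. Without the block the adjusted p of these 5 were 0.228, 0.327, 0.464, 0.229 and 0.309.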

How the results depend on the processing

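Over the planned and added settings, the log2 fold changes of the members tested in NB4 kept their sign in every setting run. CHAC1, below the filter there, was not followed in NB4. The differences between the lines also kept their sign in every setting run. The count of members called in NB4, 3 with the values as deposited, was 0 with no filter, TPM scaling, median centring or quantile normalization (unadjusted, 5, 4, 4 and 4 in limma, against 3.44%, 2.41%, 1.35% and 1.80% of all genes), 5 with the replicate block, with the joint model and with the block and TPM scaling, and 0 to 3 when a sample was left out. The count of other pathway genes called there, 1 as deposited, was 0 under the same 4 settings, 11 with the block, 7 with the joint model, 5, 6, 5 and 6 with the block and median centring, TPM scaling, quantile normalization or no filter, and 0 to 5 when a sample was left out. For the difference between the lines, the block gave 5 members, and 1 with median centring, 1 with quantile normalization and 1 with no filter. It gave 5 other pathway genes, and 2, 1, 2 and 1 with median centring, TPM scaling, quantile normalization and no filter. The share of all genes was not computed for the joint model, the fits with a sample left out or the block with a scaling. In NB4 the block with no filter called 3 members (DDIT4, ASNS and CHAC1). The block changed no call in Kasumi-1 or between the controls of the members. Between the controls, CHAC1 was not called at a pseudocount of 1 and not tested at a minimum of 1 FPKM, so 0 members were lower. Some values near 0 changed sign. Between the controls these were ATF3 (0.001 with quantile normalization, also with the block) and SESN2 (0.070 with TPM scaling, 0.009 with median centring and 0.081 with quantile normalization, the same with the block). Leaving out samples gave -0.402 to 0.029 for SESN2, -0.033 to 0.186 for ATF5 and -0.187 to 0.423 for DDIT3. In Kasumi-1 they were PSAT1 (0.011 with TPM scaling, also with the block, and -0.030 to 0.024 when a sample was left out), SESN2 (-0.002 with median centring or quantile normalization, also with the block, and -0.021 to 0.192) and PHGDH (-0.223 to 0.110). The cause was not tested. Where a group kept 2 samples, limma pooled the spread over the groups. Depth cannot be judged from FPKM, and ATF3 and CHAC1, both under 1 FPKM in every sample, rest on the least signal.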
